A study of Homo sapiens with 2 samples.

Results

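The genes of the cytosolic ribosome were measured in HCT116, an established human colon cancer cell line, on 1 Agilent one-color array for each of 2 stable transfectants. The members were the genes whose RefSeq transcript on the array had an RPL or RPS number as its symbol, together with RPLP0, RPLP1, RPLP2 and RPSA. All 78 such symbols of RefSeq had a probe, 168 probes in all. Of these, 163 probes of 77 genes were well above background on both arrays, out of 17938 such probes and 11994 such genes among the 50599 probes of the array. The groups, and with them the sign of every difference, come from the genotype and title labels, since the treatment text of both samples describes the HOXA5 short vector. The mock-transfected cells had the genotype label control, and the other cells overexpressed HOXA5 short RNA, a non-coding transcript of the HOXA5 locus, from a pEB vector. Both had been kept in blasticidin for 2 weeks, and only stable transfectants of this 1 cell line were compared. There was 1 array per group, so no difference between the groups had a replicate check and none was tested. All differences are log2 values, HOXA5 short RNA minus mock, after the 75th percentile of each array was subtracted.

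The ribosome translates messenger RNA into protein. Its small subunit, 40S, decodes the message, and its large subunit, 60S, forms the peptide bonds and holds the tunnel through which the new chain leaves. Most ribosomal proteins are needed in equal number, and growing cells make them from very abundant messages. These messages carry a run of pyrimidines at their 5′ end, the 5′ terminal oligopyrimidine (5′ TOP) motif, through which mTOR and the RNA-binding protein LARP1 control their translation. Transcription of the genes and of ribosomal RNA is raised by MYC in growing cells, colon cancers included. An array measures the amount of message and does not see translation.

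The motif was looked for in the RefSeq promoter sequences of GRCh38.p14, as a C at the annotated start followed by at least 4 further C or T on the strand of the gene. Of the 77 genes compared, 62 were in that table, and 46 of them (74.2%) had such a start. Counted by start, 47 of 78 (60.3%) carried the run, against 4.07% of all 35116 starts in the table. The median run was 8 pyrimidines and the longest was 19. The starts below belong to genes described later, and each is written 5′ to 3′ from 15 bases before the annotated start through the first 15 bases of the transcript. Capitals mark the run from the start.
RPLP0, chr12:120201097-120201126, minus strand: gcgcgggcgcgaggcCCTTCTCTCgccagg
RPLP1, chr15:69452803-69452832, plus strand: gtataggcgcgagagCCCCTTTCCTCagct
RPLP2, chr11:809952-809981, plus strand: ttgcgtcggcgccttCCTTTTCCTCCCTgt
RPS6, chr9:19380222-19380251, minus strand: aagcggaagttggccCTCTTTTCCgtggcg
RPS12, chr6:132814554-132814583, plus strand: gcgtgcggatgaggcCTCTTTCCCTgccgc
RPS13, chr11:17077653-17077682, minus strand: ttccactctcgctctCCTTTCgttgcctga
RPL31, chr2:101002274-101002303, plus strand: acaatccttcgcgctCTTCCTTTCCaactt
RPL36, chr19:5690280-5690309, plus strand: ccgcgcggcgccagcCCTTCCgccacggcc
Of the 16 genes without such a start in the table, 3 are shown for contrast, and they hold no capitals.
RPL17, chr18:49492451-49492480, minus strand: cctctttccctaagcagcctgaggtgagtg
RPL27, chr17:42998404-42998433, plus strand: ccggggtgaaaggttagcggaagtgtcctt
RPS4X, chrX:72277234-72277263, minus strand: gcagtctccagccccaatttctacgcgcac
These 3 sequences say only that the run is not at the start that RefSeq gives. The median difference between the arrays was 0.04 over the 46 genes with the run and 0.06 over the 16 without it. The ranges overlapped, from -0.42 (RPL36) to 0.82 (RPLP1) with the run and from -0.37 (RPL27) to 1.16 (RPL17) without it.

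The ribosomal protein messages were among the brightest on both arrays. The processed signal of the 163 probes ran from 15.6 to 64426 with a median of 12540 in mock cells, and from 16.4 to 78255 with a median of 16016 with HOXA5 short RNA. The median over all probes compared was 90.5 and 111. With HOXA5 short RNA, 89.0% of the ribosomal protein probes and 13.9% of the other probes reached a signal of at least 1000. The members took 17.4% of the summed processed signal of all probes in mock cells and 17.5% with HOXA5 short RNA. Probes bind with different strength, so the signals of different probes were not set against each other, and fewer cells of a kind and less RNA per cell cannot be told apart in bulk RNA. The higher raw signals on the HOXA5 short array went with a higher 75th percentile, 44.0 against 35.7 on the mock array, which the scaling removed.

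**Figure D1:**
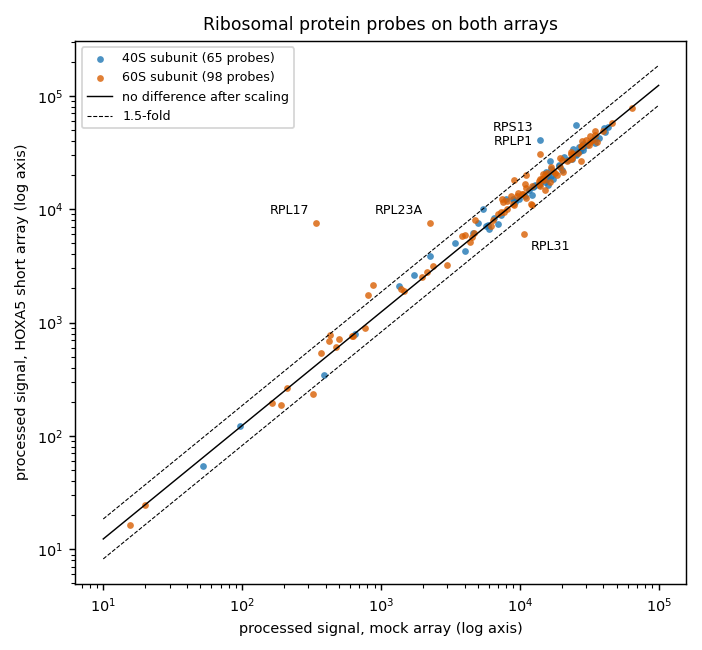
Processed signal of each ribosomal protein probe compared, mock array on the horizontal and HOXA5 short array on the vertical axis (both log axes, arbitrary scanner units), colored by subunit. The solid line is no difference after scaling and the dashed lines are 1.5-fold. Most points lie between the dashed lines, with 9 probes above them and 2 below, of which 1 probe each of RPL17, RPL23A, RPS13, RPLP1 and RPL31 is labeled.

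Of the members' probes, 5 were not well above background on both arrays. Those of RPS20, RPS24, RPL10 and RPL28 were further probes of genes that also had a passing one. The fifth was the only probe of RPS4Y1, the copy of RPS4X on the Y chromosome. Its counterpart RPS4X, on the X chromosome, gave 16888 in mock cells and 19750 with HOXA5 short RNA, a difference of -0.08. The identity of the cells was checked with 6 epithelial markers, which were all compared, while of 5 genes of blood, endothelial and stromal cells only COL1A1 was, at 16.7 and 22.6. The HOXA5 probe went from 39.4 ± 4.32 to 346 ± 34.6 (error of the scanner software), 7.11-fold. Both arrays lay on 1 slide and were scanned together.

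Most of the 77 genes lay close to 0. The median difference was 0.04 (SD 0.25 over genes), with 47 genes above 0 and 30 below, and quartiles at -0.08 and 0.15. Over all genes compared the median was -0.02 and the SD 0.29. Of these genes 5459 lay above 0 and 6535 below, with quartiles at -0.15 and 0.12. Within 0.5 of 0 lay 74 members (96.1%), against 93.3% of all genes. At least 1.5-fold higher were 2 of the 77 genes (2.6%), where 2.78% of all genes were, and at least 1.5-fold lower was none, where 1.6% of all genes were. At 2-fold, 1 gene was higher (1.3%, against 0.642% of all genes) and none was lower (0.258% of all genes). These shares were near those of the array as a whole. The spread of a single spot, taken from probes printed in several spots, was an SD of 0.13 at signals of 5000 and over (21 probes) and 0.22 below 200 (321 probes), and it holds no difference between cultures. The 77 genes lie on 21 chromosomes, with the most, 12, on chromosome 19.

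**Figure D2:**
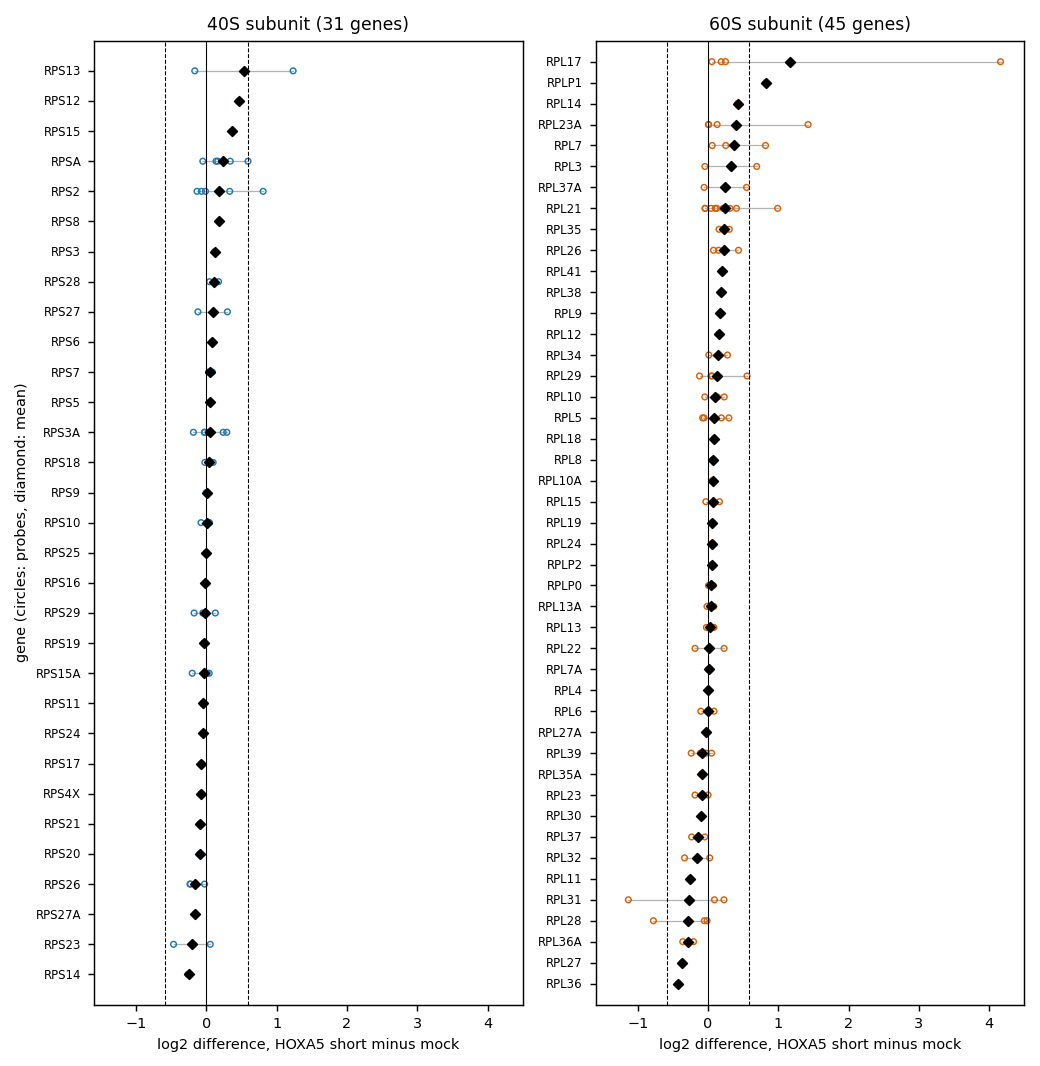
Log2 difference (HOXA5 short minus mock) of ribosomal protein genes, the 40S genes on the left and the 60S genes on the right. Circles are single probes and diamonds are gene means, and the dashed lines mark 1.5-fold. The gene means shown run from -0.42 (RPL36) to 1.16 (RPL17), and the genes with the widest lines have 1 probe far from the others.

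The 31 genes of the 40S subunit had a median of 0.00 and ran from -0.25 (RPS14) to 0.53 (RPS13), with 16 above 0 and 15 below. RPS6 is the protein that S6 kinase phosphorylates in growing cells. Its probe gave 28502 in mock cells and 37252 with HOXA5 short RNA, a difference of 0.08. RPS3, which sits where the message enters the subunit, gave 4591 and 6148, a difference of 0.12. RPS19, the gene most often mutated in Diamond-Blackfan anemia, had probes that read 22388 and 34890 in mock cells and 26906 and 42231 with HOXA5 short RNA. Their differences were -0.04 and -0.03. RPS14, which sits at the platform of the subunit and is lost in the 5q- syndrome, had a pair of probes that went the same way, one from 15986 to 16456 and the other from 4046 to 4234. After scaling these were -0.26 and -0.24, and the spots around the first had a median of -0.33. RPS12 had 1 probe, which went from 2261 ± 226 to 3830 ± 383, a difference of 0.46. RPS15, also with 1 probe, went from 16535 to 26375, a difference of 0.37, and its spot was in the first column of the grid.

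RPS13 led the subunit only through 1 of its probes. That probe went from 14025 to 40693, a difference of 1.23. The other RPS13 probe went from 34854 to 38355, a difference of -0.17. The 2 probes of this gene therefore lay on either side of 0. RPS2, at the channel where the message enters, had 5 probes, of which 1 went from 25581 to 55209 (0.81) while its remaining probes lay between -0.13 and 0.33. RPSA, which is also known as the laminin receptor, had 1 probe at 0.59 (5426 to 10089) and others from -0.05 to 0.34. RPS23, at the decoding center, had probes at -0.47 (389 to 347) and 0.05 (6526 to 8363), and the lower value came from the dimmer of them.

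The 46 genes of the 60S subunit had a median of 0.06, with 31 above 0 and 15 below. The stalk is the flexible arm of the subunit that recruits the elongation factors, built from RPLP0 at its base and the acidic proteins RPLP1 and RPLP2. RPLP1 was the single gene at least 1.5-fold higher whose value did not rest on disagreeing probes, since it had only 1 probe. It went from 13945 ± 1394 in mock cells to 30431 ± 3043 with HOXA5 short RNA, 1.77-fold (0.82). Its partner RPLP2 went from 28024 to 35981, a difference of 0.06. RPLP0 had a probe printed in 1 spot, which went from 39473 to 48932 (0.01), and a probe printed in 10 spots with a mean of 0.08. The higher value thus stood for 1 of the 3 stalk genes, on 1 spot per array, where 1 of 25 surrounding spots of other probes was 2-fold apart. Subtracting the median of those surrounding spots left it at 0.81.

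The RPLP0 and RPL30 probes printed in 10 spots show how far a single spot could wander. RPL30 is a small protein at the interface of the subunits. Of its 10 copies 9 carried no outlier flag, and they read 16950 to 19185 in mock cells and 19578 to 21929 with HOXA5 short RNA. Their differences ran from -0.23 to 0.04, with a mean of -0.10 ± 0.08 (SD, n = 9 spots). For RPLP0, 8 copies carried no flag, and their differences ran from -0.34 to 0.43, with a mean of 0.08 ± 0.23 (SD, n = 8 spots). Both remaining RPLP0 copies were flagged as outliers on 1 array and went in opposite directions. One went from 16249 to 3826, a difference of -2.39, and the other from 2177 to 21715, a difference of 3.01. Copies of 1 sequence on the same pair of arrays thus lay far below and far above 0.

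**Figure D3:**
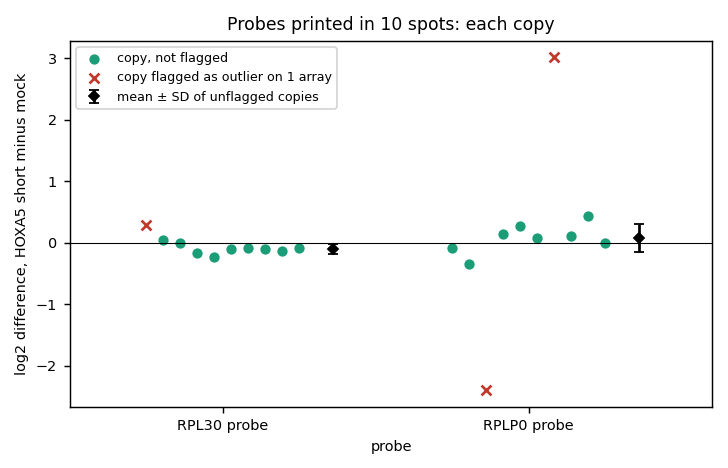
Log2 difference of each of the 10 spots of the RPL30 probe and of the RPLP0 probe. Circles are copies without an outlier flag, crosses are copies flagged on 1 array, and diamonds with bars are the mean ± SD of the unflagged copies. The unflagged copies lie between -0.34 and 0.43, and the flagged RPLP0 copies lie at -2.39 and 3.01.

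Around the mouth of the exit tunnel lie RPL17, RPL19, RPL22, RPL23A, RPL26, RPL31, RPL35 and RPL39. Their median was 0.14, with 6 above 0 and 2 below, where 47 of all members lay above 0 and 30 below. It was 0.055 without the spots in uneven zones (defined below) and 0.08 with the median over the probes of a gene. RPL17 had the highest value of all members, 1.16, and 1 probe carried it. That probe went from 342 ± 34.3 to 7553 ± 755, a difference of 4.16. The other RPL17 probes went from 478 to 612, from 1398 to 1965 and from 8045 to 11793, which gave 0.05, 0.19 and 0.25. RPL23A, where the signal recognition particle docks, had 1 probe that went from 2268 to 7506 (1.42) and others at 0.01, 0.01 and 0.13. RPL31 went the other way, with 1 probe at -1.13, from 10722 to 6031, and others at 0.09 and 0.23. RPL26 had probes at 0.08, 0.15 and 0.43, RPL35 had probes at 0.16 and 0.30, and RPL19 had 1 probe at 0.06. The gene means of RPL22 and RPL39 were 0.02 and -0.08.

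Counted by probe, 9 of the 163 probes were at least 1.5-fold higher (5.52%, against 3.95% of all probes) and 2 were at least 1.5-fold lower (1.23%, against 2.31%). At 2-fold, 3 probes were higher (1.84%, against 1.06% of all probes) and 1 was lower (0.613%, against 0.318%). Of these 11 probes, 10 belonged to genes with several passing probes. In 0 of the 10 did another probe of the gene pass 1.5-fold in the same direction. Besides the genes above, these were RPL21 (0.99, with its other 8 probes from -0.04 to 0.40), RPL7 (0.82, others at 0.06 and 0.25), RPL3 (0.69, the other at -0.04) and RPL28 (-0.78, others at -0.05 and -0.01). Of the 43 genes with several passing probes, 30 had all their probes within 0.5 of each other, and the median distance from the lowest to the highest probe of a gene was 0.28. RPL29 and RPL37A had a probe each just inside 1.5-fold, both at 0.55, while the others of RPL29 ran from -0.12 to 0.06 and the other of RPL37A was at -0.06. Probes of ribosomal protein genes can also bind the messages of processed pseudogenes and of other transcripts of the gene, which the files do not separate.

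The probes that stood apart were not spread evenly over the grid. Of the 16 members' probes printed once in grid columns 1 to 14, 8 were at least 1.5-fold apart, against 3 of 145 (2.07%) in the remaining columns. The cut at column 14 was chosen after the data were seen, so this contrast describes these values and is not a test. Over all probes these shares were 15.3% and 5.68%. An uneven zone was a place where at least 10% of at least 10 well-measured spots of other probes, within 4 rows and 4 columns, were 2-fold apart. Of the members' 161 probes printed once, 7 (4.35%) lay in such a zone, against 2.84% of all probes, and 5 of the 7 were at least 1.5-fold apart. Of all probes printed once, 32.7% were so in such zones and 5.7% outside them. The 5 members' probes were those of RPL17, RPL23A, RPS13, RPL7 and RPL28 given above. Around the RPL28 probe, 10 of 10 neighboring spots were 2-fold apart, and around the RPL17 probe 5 of 29 were. Without the spots in uneven zones RPL17 stood at 0.16, RPL23A at 0.05 and RPS13 at -0.17, and 1 member, RPLP1, remained at least 1.5-fold higher. The part of position in these differences was not tested. The RPL31, RPL21, RPS2, RPL3 and RPSA probes past 1.5-fold lay outside such zones. Those of RPL31, RPL21 and RPS2 were still in columns 1 to 14 (columns 11, 2 and 11). Without these columns RPL31 went from -0.27 to 0.16, RPL21 from 0.23 to 0.14 and RPS2 from 0.18 to 0.03. The spots around the RPL31 and RPL3 probes had medians of -0.28 and 0.30.

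**Figure D4:**
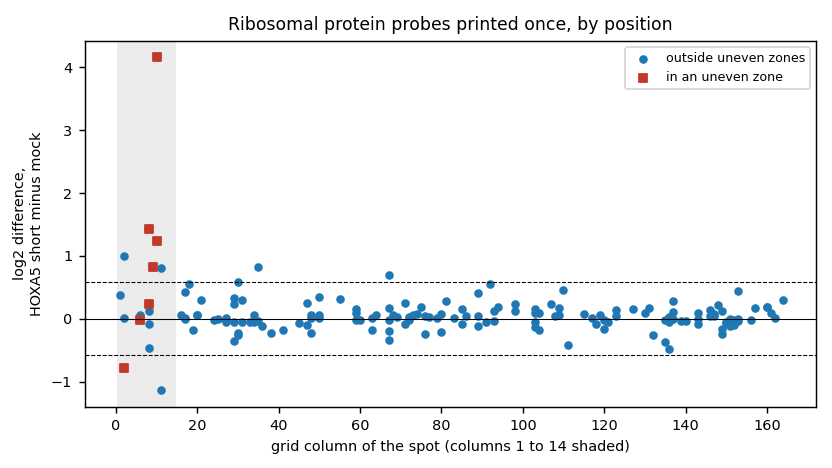
Log2 difference of each ribosomal protein probe printed in 1 spot against the grid column of the spot. Squares are spots in uneven zones, circles are other spots, the shaded band is columns 1 to 14 and the dashed lines are 1.5-fold. The band holds values from -1.13 to 4.16, and the highest value beyond it is 0.82.

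Among the lowest genes were RPL36, RPL27, RPL36A, RPL28 and RPL31 of the 60S subunit, the last pair of them through the single probes described above. RPL36 went from 12108 to 11156, a difference of -0.42. RPL27 went from 15278 to 14613, a difference of -0.37. Both had 1 probe, and neither reached 1.5-fold. Their spots lay in grid rows 41 and 31, where the surrounding spots of other probes also had a median below 0, at -0.33 around RPL36 and -0.15 around RPL27. After those local medians were subtracted they stood at -0.09 and -0.22. RPL36A had probes that went the same way, at -0.36 (27679 to 26627) and -0.21 (18638 to 19940). At the upper end RPL14, with 1 probe, went from 7503 to 12395, a difference of 0.42, and the surrounding spots had a median of -0.03.

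RPL5 and RPL11 bind 5S ribosomal RNA, and the free particle binds the ubiquitin ligase MDM2 when assembly of the ribosome stalls. RPL11 had 1 probe, which went from 20382 to 21113, a difference of -0.25. RPL5 had 4 probes from -0.08 to 0.30 with a mean of 0.09. The pair thus lay on either side of 0, and neither was past 1.5-fold. RPL13A, which can leave the ribosome to silence inflammatory messages, had 3 probes from -0.01 to 0.08. Of the genes mutated in Diamond-Blackfan anemia, a failure of red cell production, 19 were compared. Their median was -0.03, with 9 above 0 and 10 below, from -0.37 (RPL27) to 0.23 (RPL35).

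The spread was compared above the same signal thresholds, taken on the geometric mean of a probe's signals on both arrays. A probe could thus enter a class through the array on which it was higher. The classes had no upper limit and were not matched for brightness. Of the probes at 1000 and over, 102 of 145 members and 217 of 2250 others reached 10000. Among probes with a signal of at least 10000, the interquartile range was 0.15 for the 102 ribosomal protein probes and 0.23 for the 217 others, with medians of 0.01 and 0.02. At signals of at least 1000 the interquartile ranges were alike, 0.21 for both, and the SD was 0.44 for the ribosomal protein probes and 0.31 for the others. That class held the RPL17 probe at 4.16, which reached 1000 only on the HOXA5 short array (342 to 7553). The same held for 1 probe of RPL7 (808 to 1758) and 1 of RPL21 (881 to 2159). At signals of at least 5000 the SD was 0.25 and 0.27. The 18 members' probes below 1000 had a median of -0.02 and ran from -0.78 to 0.55. For comparison, the 76 mitochondrial ribosomal protein genes compared, which serve the separate ribosome of the mitochondrion, had a median of -0.045 and an interquartile range of 0.13. Their SD was 0.48, and they ran from -3.09 to 1.08. The 36 proteasome subunit genes, another set made in fixed proportions, had a median of 0.00. The cytosolic genes had an interquartile range of 0.23 and an SD of 0.25. These gene sets were not matched for brightness.

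Genes next to the members in function were described from lists of textbook members. FAU, which encodes a ribosomal protein fused to a ubiquitin-like protein, and RACK1, a scaffold on the 40S head, fell outside the symbol rule. They stood at 0.12 and -0.14. Of 9 paralogs that the symbol rule left out, 6 were compared, from -0.37 (RPS27L) to 0.13 (RPL22L1), and none was past 1.5-fold. Of 17 other genes with TOP messages, 16 were compared, with a median of 0.04. At least 1.5-fold higher among them were EEF1G, an elongation factor subunit, at 0.70, and HNRNPA1, a splicing factor, whose probes at 0.02 and 1.56 disagreed. EIF3E was lowest at -0.36, and VIM was not well above background.

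The lists of initiation factors and of ribosome production also had medians near 0. Over all genes compared, 5459 lay above 0 and 6535 below, and 2.78% were at least 1.5-fold higher. Of 26 initiation factor genes 25 were compared, with a median of 0.01, and EIF3M, a subunit of the eIF3 complex, was the 1 past 1.5-fold, at 0.82. The cap-binding factor EIF4E was lowest at -0.21. Of 38 genes of ribosome biogenesis 37 were compared, with a median of -0.03, 12 above 0 and 25 below. WDR43, of the small subunit processome, was past 1.5-fold at 0.73, and BYSL was lowest at -0.25. The 14 genes of RNA polymerase I, which transcribes ribosomal RNA, ran from -0.39 (POLR1B) to 0.20 (TAF1D). MYC stood at 0.13, MTOR at 0.10 and LARP1 at 0.19, and in that list of 11 regulators TSC1, part of the brake on mTOR, was past 1.5-fold at 0.66 while MXD1, a MAX partner that opposes MYC, was lowest at -0.58. The only probes of MYC and of MXD1 lay in uneven zones. Among these named genes EEF1G, EIF3M, WDR43 and TSC1, all past 1.5-fold, had 1 probe each. The same held for EIF3E, BYSL, POLR1B, TAF1D, MYC, MTOR, LARP1 and MXD1.

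**Figure D5:**
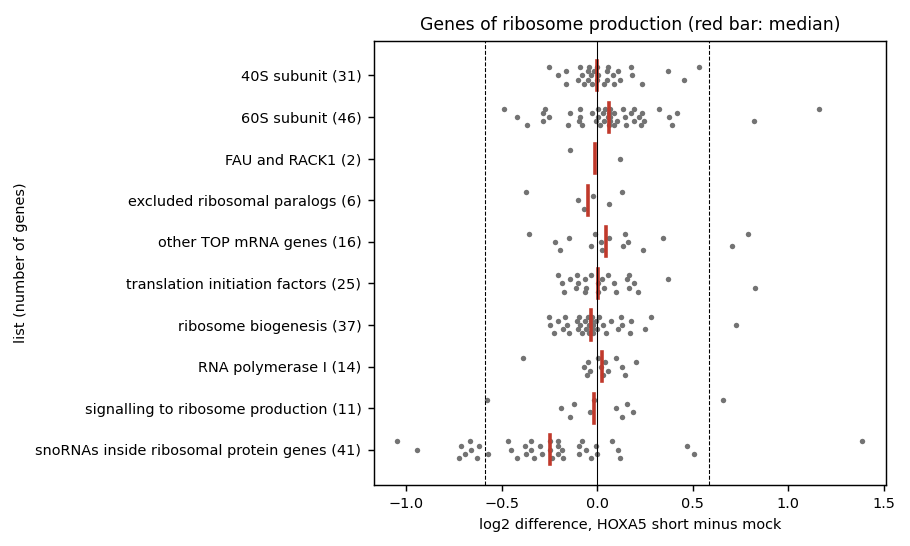
Log2 difference of each gene in the lists of ribosome production and of each small nucleolar RNA lying inside a ribosomal protein gene. Points are genes, red bars are list medians and the dashed lines are 1.5-fold. The list medians lie between -0.05 and 0.06 apart from the small nucleolar RNAs, whose median is -0.25.

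Introns of ribosomal protein genes hold many small nucleolar RNAs (snoRNAs), which guide the modification of ribosomal RNA and are cut from the same primary transcript. Of 56 such snoRNAs listed, 55 lay inside the host gene in RefSeq, 49 had a probe and 41, from 23 host genes, were compared. Their median was -0.25, with 35 below 0 and 6 above, while the median of their hosts was 0.09. At least 1.5-fold lower were 9, where 1.6% of all genes were, and at least 1.5-fold higher was 1, where 2.78% of all genes were. Both counts stayed the same with quantile and with cyclic loess normalization. They became 5 and 2 with scaling to the array median, where 1.07% of all genes were lower and 4.17% higher. With another background correction (normexp) they became 1 and 0, where 0.183% of all genes were lower and 1.33% higher. When the arrays were scaled to the spiked-in control RNAs they were 1 and 3, where 0.2% of all genes were lower and 23.5% higher. SNORA27, in an intron of RPL21, went from 725 to 434, a difference of -1.05, while RPL21 itself stood at 0.23. SNORD21, in RPL5, went from 29.4 to 18.9 (-0.94), and SNORD15A and SNORD15B, in RPS3, stood at -0.69 and -0.66. The 1 higher, SNORD34 in RPL13A, went from 15.8 to 51.1 on a spot in an uneven zone. The median was no lower than that of snoRNAs in general, since the other 125 snoRNA genes compared had a median of -0.29, with 107 below 0 and 26 at least 1.5-fold lower. The signals of the 41 were low, with a median of 61.0 on the mock array. The 23 with a signal of at least 50 on both arrays had a median of -0.25. The median of the 41 became -0.12 with normexp. It became 0.21 with the spiked-in controls, which moved the median of all genes to 0.43. Relative to all genes, the snoRNA median was lower in each of 16 settings, from -0.27 to -0.14. Scaling to the array median, to detected probes only or to the spiked-in controls shifts every gene alike. In those settings the relative value could not differ from the main one, -0.23. The part of dim signal in the lower snoRNA values was not tested.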

How the data were processed

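Total RNA (400 ng) was labeled with Cy3 and hybridized to SurePrint G3 arrays. Per the file headers, the authors quantified the spots with Feature Extraction 11.5.1.1 on an hg19 design, and the deposited processed signal is a background-corrected intensity with an error and flags for each spot. The methods name GeneSpring for later analysis. A deposited table of log2 values from the authors was used as an alternative and differed from the values here by a median of 0.0011. The deposited flags of each spot are scores of 0 or 1.

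Intensities were converted to log2, unflagged spots of a probe were averaged, and each array's 75th percentile (non-control probes) was subtracted. A probe was compared when well above background on both arrays, and a gene was the mean of its passing probes. Accessions were matched to RefSeq symbols (GRCh38.p14) for 30004 probes (59.3%). The threshold was 1.5-fold. Named were the 6 highest and 6 lowest genes, genes with a probe past 1.5-fold or probes at least 0.5 apart, genes of the stalk, of the 5S particle and of special interest (RPSA, RPS6, RPL13A, RPS4X), and the extremes of the other lists. RPS3, RPS14, RPS15, RPS19, RPL19, RPL22, RPL26, RPL35, RPL39, MYC, MTOR and LARP1 and the named snoRNAs were added for their role or value after the values were seen. Some genes are not reported here.

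The members and lists were chosen with earlier results of these data known. With 1 array per group there was no test, and the precision is limited by that number. Alternatives were median scaling, detected probes only, spiked-in controls, quantile and cyclic loess normalization, normexp (offset 50), the deposited table, no filter, a signal of at least 50, the brightest probe, the median over spots, a 2-fold threshold, counts of probes, and leaving out uneven zones. The median over probes, leaving out columns 1 to 14 and local centering (subtracting the median of the surrounding spots) were chosen after seeing the data. Python 3.11.15 (pandas 2.3.3, numpy 2.4.6) and R 4.3.3 (limma 3.58.1) were used, and the scripts were tested on simulated data.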

Additional observations from a re-analysis of the deposited data

Results flagged for a closer look

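Of the ribosomal protein probes at least 1.5-fold apart, 5 lay in uneven zones of the grid, where many spots of unrelated probes were also 2-fold apart between the arrays. The position of a spot was not used in the main values, only in alternatives. Each of the 5 belonged to a gene whose other probes were within 1.5-fold, and the part of position was not tested.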

How the results depend on the processing

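No paired analysis was possible because there was 1 array per group. Neither could a replicate be left out, for the same reason. Over 15 alternatives the median of the ribosomal protein genes ran from 0.01 (brightest probe of each gene) to 0.50 (scaling to the spiked-in controls). Relative to the median of all genes it ran from 0.03 to 0.16. Median scaling, detected probes only and the spiked-in controls shift every gene alike. They could therefore only repeat the relative value of the main setting, 0.06. Scaling to the spiked-in controls, of which 7 were detected, moved the median of all genes to 0.43. With it 22 of the 77 members were at least 1.5-fold higher, where 23.5% of all genes were. The medians were then 0.46 for the 40S and 0.52 for the 60S genes, 0.51 for the stalk, 0.37 for the 5S particle and 0.60 around the exit tunnel. They were 0.43 for Diamond-Blackfan genes, 0.41 for the paralogs, 0.45 for FAU and RACK1, 0.50 for other TOP genes and 0.46 for initiation factors. For biogenesis the median was 0.42, for RNA polymerase I 0.48, for the regulators 0.44 and for the snoRNAs 0.21. The split over all genes at 1.5-fold was 333 higher and 192 lower, 500 and 128 with median scaling, 2819 and 24 with the spiked-in controls, 160 and 22 with normexp, and 1232 and 1505 without a filter.

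The count of members at least 1.5-fold higher was 1 with the brightest probe, the median over probes, a 2-fold threshold, without grid columns 1 to 14 or without uneven zones, and 9 when probes were counted. In those gene counts at 1.5-fold, 2.27% to 2.89% of all genes were higher. The count lower was 1 without a filter (RPS20, through a probe not well above background), where 6.96% of all genes were lower, and 2 when probes were counted. List medians were set against the median of all genes in 16 settings, counting the main one. The median of the 5S particle genes, RPL5 and RPL11, was above it in 2 of these. The main setting was not among them, at -0.08 against -0.02. The median of the 60S genes was above it in 16 of 16. In these counts median scaling, detected probes only and the spiked-in controls could only repeat the main setting. Of 420 values of named members, 60 moved by at least 0.19 (1 SD of a single unflagged spot). Of these, 32 moved under alternatives other than the spiked-in controls. RPL28 stood at 0.33 after local centering. Signals near background limit the snoRNAs, and 1 array per group limits every value.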
